A study of Homo sapiens with 12 samples.

Results

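The apolipoprotein L genes APOL1, APOL2, APOL3, APOL4 and APOL6 were followed across 12 RNA-seq libraries of SK-N-DZ, a MYCN-amplified human neuroblastoma line. These 5 of the 43769 genes in the count table were chosen by gene name after APOL3 had been seen among the largest increases with IFNγ in these same libraries. The comparison of IFNγ with control is therefore given as a description without a test. All libraries came from 1 clone that carries a doxycycline-inducible short hairpin against ARID1A, a subunit of the SWI/SNF chromatin remodelling complex. The groups, with 3 libraries each, were control (C, labelled WT, neither agent), doxycycline for 4 days (D, labelled shARID1A), IFNγ for 24 h (I, labelled WT) and both agents (DI, labelled shARID1A). No library had doxycycline without the hairpin, so the drug, the hairpin and a loss of ARID1A cannot be told apart.

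Apolipoprotein L proteins are membrane-active helical proteins encoded by a gene cluster on chromosome 22 that expanded in primates. APOL1 is the secreted member, which circulates with high-density lipoprotein and kills trypanosomes, whereas most of the others act inside the cell. APOL3 disrupts the membranes of bacteria in the cytosol of IFNγ-stimulated cells, together with guanylate-binding proteins. IFNγ signals through its receptor and the kinases JAK1 and JAK2, and the response includes IRF1 and further interferon-stimulated genes.

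In GENCODE release 29 (GRCh38), APOL6 lay at chr22:35648395-35668409 on the plus strand and stood apart from the other members. APOL3 (chr22:36140330-36166177), APOL4 (chr22:36189124-36204840) and APOL2 (chr22:36226203-36239954) lay on the minus strand, and APOL1 (chr22:36253010-36267530) on the plus strand. The gap between APOL6 and APOL3 was 471920 bp, and the gaps between the other neighbours were 22946, 21362 and 13055 bp. None of the 5 overlapped another annotated gene. The identifiers were ENSG00000100342 (APOL1), ENSG00000128335 (APOL2), ENSG00000128284 (APOL3), ENSG00000100336 (APOL4) and ENSG00000221963 (APOL6).

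Reads of one member could be counted on another if their sequences were alike over the length of a read, so their likeness was measured first. APOL1 and APOL2 were identical at 73.3% of aligned coding positions and APOL3 and APOL4 at 69.0%, whereas APOL6 reached 39.2 to 46.4% with the others. The longest coding run that APOL1 and APOL2 shared was 30 bases, and it is shown with the most similar ungapped stretch of the same length in each other member. Bases that differ from APOL1 are in capitals, and each sequence is read 5′ to 3′ on the strand of its gene, from the GENCODE transcripts.
APOL1: ggattcgtggctgctgctgaactgcccagg
APOL2: ggattcgtggctgctgctgaactgcccagg
APOL3: AgattcgtgActgcGgctgaaTtgcccagg
APOL4: AgattTgtgCGtgTGgctgaaTtgcccagg
APOL6: gAaAGTgAggctgGtgTtgGTTtgcAAagg
The stretch in APOL3 shared 26 bases with APOL1, that in APOL4 shared 23 and that in APOL6 shared 18. It crossed an exon junction in every member. In APOL1 it spanned chr22:36261694-36265151 (exons 6 and 7 of the transcript used), and in APOL2 chr22:36228280-36231368 (exons 5 and 6). It spanned chr22:36142058-36145501 in APOL3, chr22:36191912-36195339 in APOL4 and chr22:35656447-35658615 in APOL6. No window of 150 bases, the labelled read length, in the longest coding transcript of any member occurred in a transcript of another gene. Windows of 50 bases occurred in another gene at 4.74% of positions in APOL1, 2.31% in APOL2, 0.252% in APOL3, 2.91% in APOL4 and 0.417% in APOL6. The family members among those other genes were APOL2 and APOL3 for APOL1, and APOL1 for APOL2 and APOL3. For APOL4 and APOL6 there was none.

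Library totals ran from 16469832 to 21790869 counts, so that 3 counts, taken as the floor of detection, equalled 0.135 to 0.187 counts per 1000000 counts (CPM). ARID1A itself had a log2 fold change of −0.092 in D vs C (SE 0.11, adjusted p = 0.788 by edgeR) and −0.44 in DI vs I (SE 0.11, adjusted p = 0.115, or 0.0111 with the replicate number in the model). ARID1A had 133 to 151 CPM in DI and 192 to 202 CPM in I, without overlap. Every DI library lay below every I library for 8.41% of all tested genes. The C libraries (165 to 197 CPM) and D libraries (158 to 197 CPM) overlapped. The paper reports lowered ARID1A in knockdown clones of this line by qPCR and Western blot. Here the D and DI groups are named by their labels and not as knockdowns, because the ARID1A call differed between comparisons and models. All 8 adrenergic neuroblastoma markers were above the floor, with a sum of 3598 to 4560 CPM. Summed leukocyte markers were at most 0.945 CPM with 3 of 5 at or under the floor in every library, and summed endothelial markers at most 2.94 CPM with 2 of 4. The 5 fibroblast markers had sums of 32.6 to 57.2 CPM (C) and 23.0 to 52.8 CPM (D) without IFNγ, and of 65.9 to 108 CPM (I) and 45.8 to 85.9 CPM (DI) with it. The sum was higher with IFNγ alone than in control, and most of it was PDGFRB (35.2 ± 9.73 CPM in C and 65.2 ± 14.4 in I). COL1A2 and DCN also had higher means in I, whereas LUM (2.02 ± 1.23 and 0.889 ± 0.562 CPM) and COL1A1 (0.904 ± 0.779 and 0.647 ± 0.605 CPM) had lower ones, and their part in the results below was not tested.

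Without IFNγ the 5 members were nearly silent. The 5 genes together had 2.95 to 3.49 CPM in C and 0.905 to 3.24 CPM in D. APOL2 held 59.4 to 94.6% of their summed counts in the C libraries and 47.4 to 86.2% in the D libraries. APOL2 had 42, 38 and 53 counts in the C libraries (replicates 1 to 3), or 2.58, 1.89 and 3.30 CPM, and 9, 25 and 41 counts in D, or 0.429, 1.29 and 2.37 CPM. APOL2 was thus above the floor in all 6 libraries, and its C and D libraries overlapped. In same-numbered pairs its D level was 0.166, 0.685 and 0.719 of the C level, so it was lower in 3 of 3 pairs, as were 22.3% of all tested genes. APOL6 had 4, 24 and 0 counts in C and 8, 2 and 15 in D, so that 1 of the C libraries held 24 of its 28 counts. APOL1 had 2, 2 and 0 counts in C and 0 in each D library. APOL4 had 0, 0 and 3 in C and 1, 2 and 0 in D. APOL3 had no count in C and 1 in D. These 3 genes were at or under the floor in every library without IFNγ, and no fold between D and C is given for them.

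In D vs C, 0 of the 5 members were called (edgeR, adjusted p under 0.05 over all 15828 tested genes), where 1.23% of all tested genes were called. By DESeq2 0 of the 5 passed as well, where 5.14% of all tested genes did. At an unadjusted p under 0.05 by edgeR it was again 0 of the 5, where 2248 of the 15828 tested genes passed. The log2 fold change of APOL2 was −0.95 (SE 0.50, adjusted p = 0.430) and that of APOL6 −0.25 (SE 0.89, adjusted p = 0.942). For APOL6 the direction rested on C replicate 2, and the value became 1.76 (SE 1.07, adjusted p = 0.531) without that library and 0.21 without D replicate 2.

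With IFNγ alone all 5 members were read at high levels. APOL5, which shares the family name but was not among the 5, had too few reads to be tested, also with the IFNγ libraries included. APOL1 had 345, 385 and 197 CPM in I (309 ± 99.1, mean ± SD, n = 3), and the ratio of summed counts, corrected for library size, was 4050 to control (95% exact counting interval 1582 to 14866). APOL2 had 281, 356 and 195 CPM (277 ± 80.3), 109 times the control level (92.0 to 130). APOL2 had the smallest ratio, and it was the member with the most control reads. APOL3 had 120, 156 and 63.2 CPM (113 ± 47.0), at least 1974-fold higher than the floor of 3 counts over the control group. APOL4 had 164, 182 and 98.1 CPM (148 ± 44.0), a ratio of 2586 (885 to 12542). APOL6, which carries a BH3-like stretch and can induce apoptosis when overexpressed, had 491, 613 and 373 CPM (492 ± 120), a ratio of 920 (636 to 1385). The fitted log2 fold change of APOL6 moved from 9.87 to 11.88 without C replicate 2. Every I library was above every C library for 5 of 5 members, a pattern seen in 8.83% of all tested genes. This count is a description only. APOL3 was picked on an increase with IFNγ, and the members other than APOL2 were tested only through their reads with IFNγ.

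**Figure D1:**
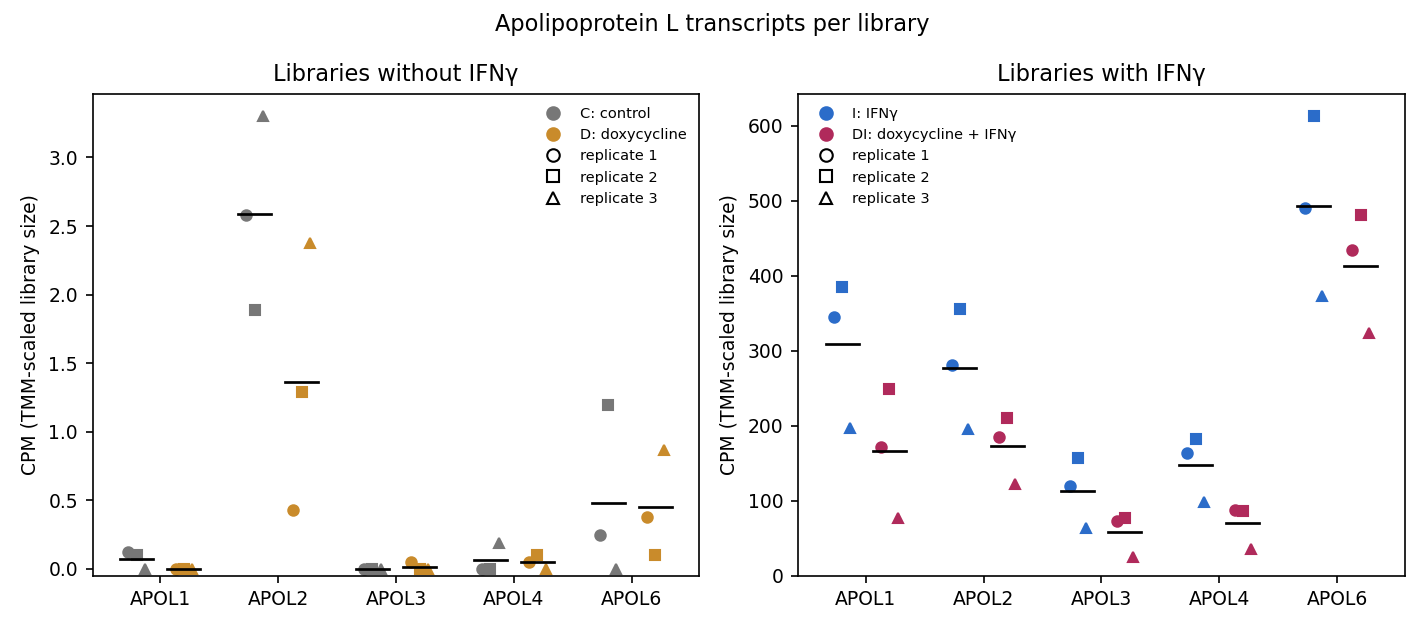
CPM of each member in each library, without IFNγ on the left (C and D) and with IFNγ on the right (I and DI), on axes of different range. Symbols mark the replicate number and black bars the mean of 3 libraries. Only APOL2 and APOL6 are visible above 0.2 CPM without IFNγ, and with IFNγ replicate 3 is the lowest of each group for every member.

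The libraries with doxycycline gave a second comparison with and without IFNγ, and this one was tested. The members were chosen with earlier results of these data known, so it is not an independent test. In DI the 3 libraries had 172, 249 and 76.9 CPM of APOL1 (166 ± 86.0), 185, 210 and 122 of APOL2 (172 ± 45.5) and 72.6, 76.7 and 24.5 of APOL3 (58.0 ± 29.1). APOL4 had 88.1, 85.7 and 35.0 CPM (69.6 ± 30.0) and APOL6 434, 480 and 324 CPM (413 ± 80.3). All 5 members rose in DI vs D (edgeR, 5 of 5 called higher), where 1.67% of all tested genes were called higher. The adjusted p was 3.50e-05 for APOL1, 8.06e-06 for APOL2, 0.000136 for APOL3, 7.21e-06 for APOL4 and 7.00e-06 for APOL6. The lowest DI library was above the highest D library for each of them, as for 5.77% of all tested genes. Only APOL2 passed the filter on the C and D libraries alone. The other 4 members were tested because of their reads with IFNγ and had to differ, so the count of 5 is no support beyond APOL2.

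The size of the rise could be fitted for the members that D libraries contained. APOL2 rose by a log2 fold change of 7.01 (SE 0.49), or 131 times by summed counts (104 to 166), and APOL6 by 9.86 (SE 0.68), or 942 times (638 to 1456). APOL1 was at least 3109-fold higher than the floor of 3 counts over the D group. APOL4 had a ratio of 1307 (447 to 6338) and APOL3, with 1 count in D, a ratio of 3254 (584 to 128546). Single D libraries moved these values. The log2 fold change was 7.66 for APOL2 and 10.67 for APOL6 without D replicate 3, and 11.06 for APOL4 without D replicate 2. Without D replicate 1 the D group held no APOL3 count, so no fitted value is given there. All 4 kept an adjusted p under 0.05 in these fits. With replicate 1 of every group left out, which left 8 libraries and no APOL3 count in D, APOL3 no longer passed (adjusted p = 0.111 by edgeR).

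Per length, as RPKM, which divides CPM by the exon length in kilobases, the order of the members differed from that of their counts. In I the levels were 87.8 ± 28.1 RPKM for APOL1, 79.6 ± 23.0 for APOL2, 48.6 ± 11.9 for APOL6, 33.8 ± 10.1 for APOL4 and 19.2 ± 7.97 for APOL3 (mean ± SD, n = 3). In DI they were 49.5 ± 13.1 for APOL2, 47.1 ± 24.4 for APOL1, 40.8 ± 7.93 for APOL6, 15.9 ± 6.85 for APOL4 and 9.82 ± 4.92 for APOL3. APOL1 and APOL2 did not differ beyond their spread in either group. APOL6 had the most reads and an exon length of 10121 bp, against 3484 to 5901 bp for the other members. APOL3 was the lowest in both groups, although its SD overlapped that of APOL4 in I and in DI. With the longest transcript as the length, APOL1 and APOL2 both had 103 RPKM in I, and APOL3 had 31.2 RPKM.

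Between DI and I, each member had a lower mean in DI. The I libraries of this comparison are also those of the comparison from which APOL3 was picked. The log2 fold change was −0.90 for APOL1 (SE 0.40, adjusted p = 0.418 by edgeR), −0.69 for APOL2 (SE 0.36, adjusted p = 0.494), −0.97 for APOL3 (SE 0.45, adjusted p = 0.436) and −1.09 for APOL4 (SE 0.38, adjusted p = 0.268). It was −0.25 for APOL6 (SE 0.42, adjusted p = 0.895). By this model 0 of the 5 members were called, where 0.67% of all tested genes were, and by DESeq2 0 of the 5, where 3.9% were. APOL4 alone had an unadjusted p under 0.05 (0.0152, edgeR), as did 12.2% of all tested genes. APOL4 was also the 1 member whose DI libraries all lay below all I libraries, as was the case for 8.41% of all tested genes.

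The replicate numbers were shared by all members: number 3 was the lowest in I and in DI for each of them. In I, replicate 3 had 54.0% of the mean of replicates 1 and 2 for APOL1, 61.4% for APOL2, 45.7% for APOL3, 56.8% for APOL4 and 67.6% for APOL6. In DI the same shares were 36.6, 61.7, 32.8, 40.3 and 70.9%. The difference between the replicate numbers thus ran the same way in both groups. Within same-numbered libraries the DI level divided by the I level was below 1 in 3 of 3 pairs for each member. The same held for 24.5% of all tested genes and for 57.6% of the 349 other interferon-induced genes defined below. For APOL1 it was 0.499, 0.645 and 0.390 (numbers 1 to 3), for APOL2 0.659, 0.591 and 0.624, for APOL3 0.604, 0.490 and 0.388, for APOL4 0.537, 0.472 and 0.356, and for APOL6 0.885, 0.783 and 0.868.

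With the replicate number in the model, 3 of the 5 members fell in DI vs I (edgeR, two-sided), where the same model called 10.5% of all tested genes. APOL1 fell by 0.99 on the log2 scale (SE 0.13, adjusted p = 0.00348), APOL3 by 1.04 (SE 0.13, adjusted p = 0.00322) and APOL4 by 1.15 (SE 0.18, adjusted p = 0.00370). APOL2 had −0.68 (SE 0.28, adjusted p = 0.144) and APOL6 −0.24 (SE 0.26, adjusted p = 0.595) and neither passed. The calls for APOL1, APOL3 and APOL4 therefore depended on whether the pairing of the libraries was in the model. Over all tested genes, with group means removed, same-numbered libraries correlated at 0.321 to 0.839 and others at −0.663 to 0.183, so the numbers did pair the libraries. The model of the 4 groups does not use this pairing. The values can be set beside the 349 other genes that IFNγ raised over both arms (mean log2 fold change of at least 1, adjusted p under 0.05), whose median in DI vs I was −0.36 with quartiles of −0.79 and −0.056. Of those 349 genes, 13.5% lay lower than APOL4, 17.2% lower than APOL3, 19.2% lower than APOL1, 28.1% lower than APOL2 and 59.9% lower than APOL6.

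**Figure D2:**
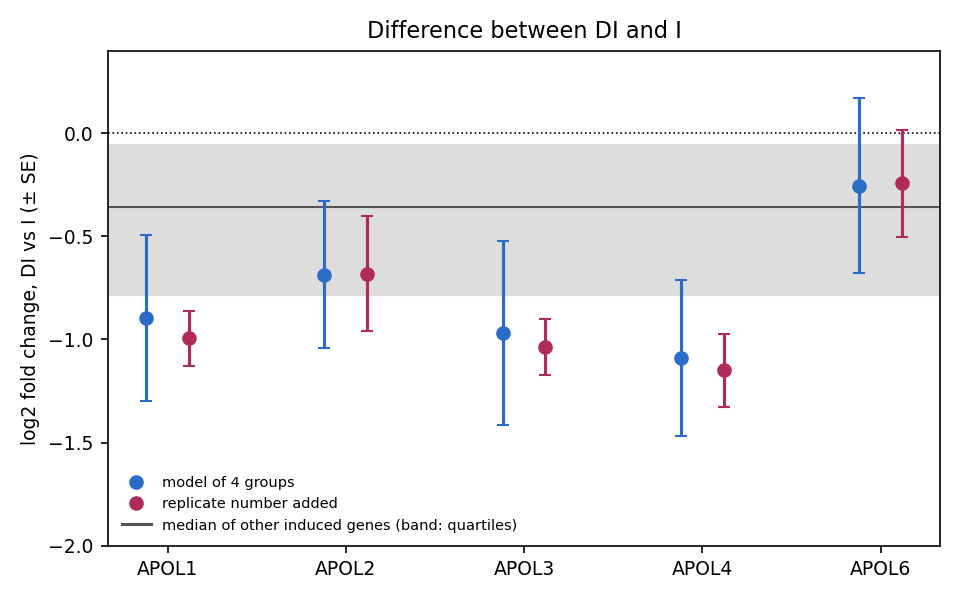
Log2 fold change of each member in DI vs I with its SE, derived from the F statistic, by the model of the 4 groups (blue) and with the replicate number added (red). The grey line and band are the median (−0.36) and quartiles of 349 other interferon-induced genes. APOL1, APOL3 and APOL4 lie below the band, APOL2 inside it and APOL6 nearest to 0.

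APOL6 had the DI vs I value nearest to 0. The other 4 members were therefore set against it within each library, a comparison that was chosen after the values were seen and needs no scaling. Counts of APOL1 divided by those of APOL6 were 0.703, 0.628 and 0.528 in I and 0.396, 0.518 and 0.237 in DI. For APOL2 they were 0.572, 0.580 and 0.524 in I and 0.426, 0.438 and 0.377 in DI. For APOL3 they were 0.245, 0.255 and 0.169 in I and 0.167, 0.160 and 0.0756 in DI, and for APOL4 0.334, 0.296 and 0.263 in I and 0.203, 0.178 and 0.108 in DI. For each of the 4 genes the DI libraries lay below the I libraries without overlap, as for 1.57% of all tested genes and 17.2% of the 349 other induced genes. The differences in mean log2 ratio were −0.75 for APOL1, −0.44 for APOL2, −0.80 for APOL3 and −0.91 for APOL4, each with a two-sided exact permutation p of 0.1 (n = 3 against 3; adjusted over the 4 ratios 0.1). This is the smallest p that 3 libraries against 3 can give, so the test could not pass. APOL6 held 35.0 to 40.3% of the summed counts of the family in I and 43.6 to 55.6% in DI.

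**Figure D3:**
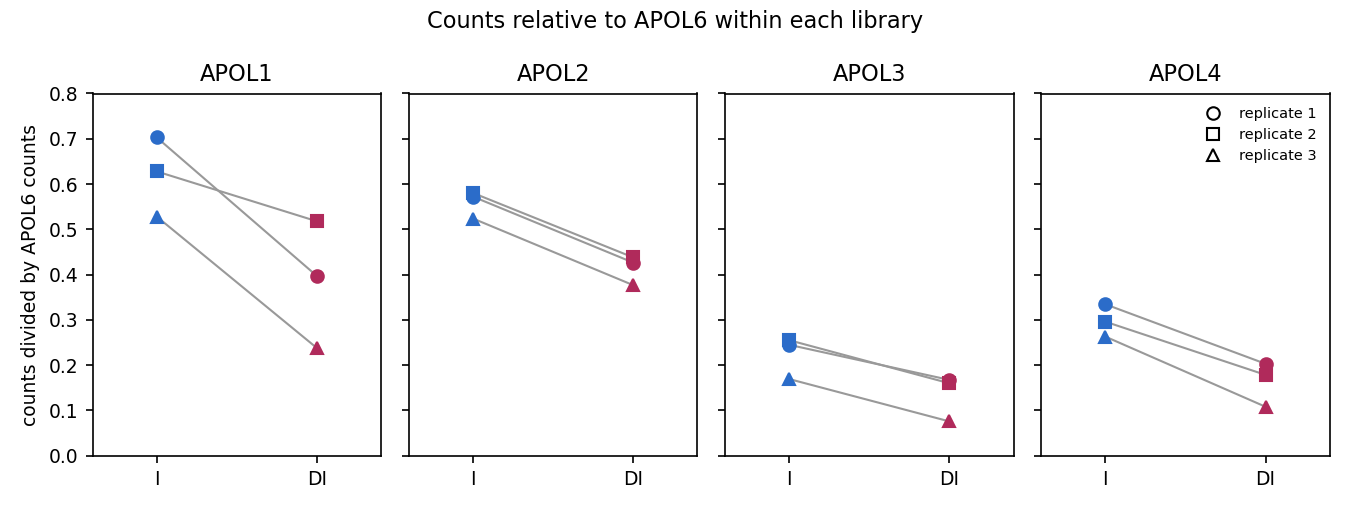
Counts of APOL1, APOL2, APOL3 and APOL4 divided by the APOL6 counts of the same library, in I and DI, with lines joining libraries of the same replicate number. Every line goes down from I to DI, and the 3 DI values of each gene lie below its 3 I values.

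Whether the IFNγ response of the family differed between the arms was asked through the interaction term, which subtracts the I vs C change from the DI vs D change. For all tested genes the interaction gave 0 calls (0% by edgeR, with 99 genes at an unadjusted p under 0.05). Of the 5 members 0 were called, also at an unadjusted p under 0.05 and by DESeq2, which called 0.0126% of all tested genes. Only APOL2 and APOL6 had more than 3 counts in each group without IFNγ, and the interaction is given for these members. The interaction of APOL2 was 0.26 on the log2 scale (SE 0.61, adjusted p = 1 by edgeR). It was −0.19 without D replicate 1, so the direction was not determined. The interaction of APOL6 was −0.0067 (adjusted p = 1), and its sign changed with single libraries. For APOL1, APOL3 and APOL4 the lower level in DI could not be separated from a difference present without IFNγ, because their reads there were at or under the floor.

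The genes between and beside the members did not share the rise. Of 23 other genes annotated from HMOX1 to EIF3D, 7 passed the filter, and 0 of these were called in any comparison by the model of the 4 groups. RBFOX2, an RNA-binding splicing regulator whose gene lies between APOL6 and APOL3, had 418 ± 105 CPM in D and 454 ± 134 in DI (log2 fold change 0.12, SE 0.25, adjusted p = 1.00 by edgeR). MYH9, the non-muscle myosin heavy chain gene next to APOL1, had 297 ± 64.9 CPM in D and 313 ± 38.6 in DI (log2 fold change 0.073, SE 0.21, adjusted p = 1.00). MCM5, a subunit of the replicative helicase and the expressed neighbour on the other side of APOL6, had 229 ± 28.1 and 211 ± 23.0 CPM. With the replicate number in the model, FOXRED2 alone of the 7 was called, lower in DI vs D and higher in D vs C and DI vs I.

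**Figure D4:**
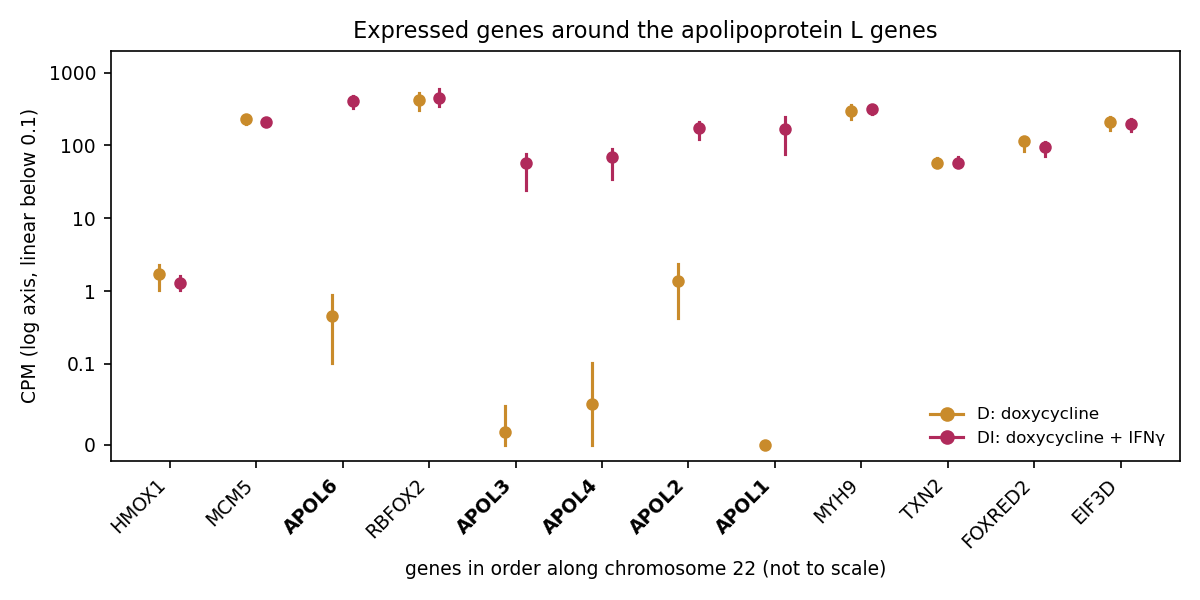
Mean CPM, with the range of 3 libraries, of the 12 expressed genes around the family in their order along chromosome 22, in D and DI, on a log axis that is linear below 0.1. The 5 members (bold) go from below 3 CPM to between 24 and 480 CPM, while the ranges of D and DI overlap or lie close together for the 7 genes around them.

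The wider apolipoprotein group showed no rise of comparable size. Of 17 apolipoproteins of other families, 7 passed the filter and 0 were called in any comparison by the model of the 4 groups, with medians of −0.077 in DI vs D and −0.087 in DI vs I. APOC1, a component of triglyceride-rich lipoproteins, had 3.51 ± 0.919 CPM in D and 3.52 ± 0.367 in DI, and APOE, a ligand of the LDL receptor, had 3.74 ± 0.387 and 2.60 ± 0.526 CPM. With the replicate number in the model, CLU (clusterin) alone was called, lower in D vs C and DI vs I and higher in DI vs D. That model called 13.9, 10.5 and 4.46% of all tested genes in these comparisons. CLU had 100 to 127 CPM in C and 130 to 173 in I, and 86.6 to 105 in D and 115 to 141 in DI. Its libraries with IFNγ thus lay above those without in both arms, with a log2 fold change of 0.43 in DI vs D. APOLD1, a relative by name, had 7.63 ± 2.39 CPM in D and 10.1 ± 4.89 in DI and was not called, and APOL5 did not pass the filter.

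The IFNγ signalling genes and the guanylate-binding proteins give the setting in which the members were measured. All 14 signalling genes passed the filter, 13 of them on the C and D libraries alone and NLRC5 only through its reads with IFNγ. In DI vs D 10 rose, where 1.67% of all tested genes were called higher. NLRC5 was among the 10 and had to differ. In DI vs I 0 were called, where 0.67% of all tested genes were. There 11 lay below 0 with a median of −0.21, beside −0.0068 for all tested genes. The receptor chains IFNGR1 and IFNGR2 and the kinase JAK1 had log2 fold changes of 0.094, 0.18 and 0.11 in DI vs D and did not pass. JAK2 rose by 2.23 (SE 0.27, adjusted p = 0.000640 by edgeR). With the replicate number in the model, CIITA was called higher in DI vs D as well, for 11 of the 14. That model called 4.46% of all tested genes in DI vs D in either direction. In D vs C it called IRF9 alone of the 14, higher in D, where it called 13.9% of all tested genes. Of 7 guanylate-binding protein genes 6 passed the filter, each through its reads with IFNγ, so that how many of them rose in DI vs D is not read as a result. In DI vs I their median was −0.80 with 6 of 6 below 0, and 0 were called by the model of the 4 groups. Of the 349 interferon-induced genes outside the family, 277 lay below 0 as well. With the replicate number in the model GBP1, GBP2, GBP4 and GBP5 fell, where that model called 10.5% of all tested genes in either direction. GBP1 had 1371 ± 81.3 CPM in I and 789 ± 92.3 in DI, and GBP2 had 178 ± 96.9 and 102 ± 61.0.

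The genes outside the family whose levels followed it most closely were other interferon-stimulated genes. Over the 12 libraries Pearson's r with the mean of the standardised log2 CPM of the 5 members was 0.999 for PLAAT4, 0.998 for OAS3 and 0.997 for IFIT3, C2 and UBE2L6. These correlations mostly describe the contrast of libraries with and without IFNγ, which all the points share. PLAAT4, a phospholipase and acyltransferase, was also closest to APOL1, APOL3 and APOL4 taken singly. For APOL6 the closest genes were GBP4 (r = 0.996) and IRF1 (r = 0.995), and for APOL2 they were HAPLN3 (r = 0.994) and C2 (r = 0.992). In DI vs I the log2 fold change of PLAAT4 was −0.87, beside −0.90 for APOL1, and that of IRF1 −0.16, beside −0.25 for APOL6. GBP4, the closest gene to APOL6, had −0.79, further from 0 than APOL6. HAPLN3 had −0.50 and C2 −0.66, beside −0.69 for APOL2. A high r thus did not go with a like DI vs I value in every case.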

How the data were processed

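RNA of 12 SK-N-DZ libraries, 3 per group, was sequenced (PE150 per the labels). The authors deposited unnormalised read counts for each gene; the aligner, the counting tool and its strand setting are not given in the sources used here. The authors also deposited 3 tables of their own DESeq2 comparisons, with fold changes, p-values and 18 per-library columns whose names the labels do not explain, and these were not used. Groups and replicate numbers were taken from the sample labels. Nothing states that replicates were separate cultures, so p-values measure the spread between these samples. Members and lists were chosen with earlier results of these data known.

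Counts were scaled by TMM and filtered with filterByExpr (minimum count 10), and 15828 genes entered 1 model of the 4 groups, fitted with edgeR 4.0.16 under R 4.3.3 (limma 3.58.1) and tested two-sided by quasi-likelihood, with Benjamini-Hochberg adjustment and a threshold of 0.05. The SE of an edgeR log2 fold change is its absolute value divided by the square root of the quasi-likelihood F statistic. Such an SE is unstable where the fold change is near 0. DESeq2 1.42.0 was an alternative. CPM is relative to the library size after TMM, and RPKM values divide CPM by the summed exon length in GENCODE release 29. Ratios of summed counts carry exact 95% intervals that cover counting error only, since reads had no molecular identifiers. After group means were removed, same-numbered libraries correlated at 0.321 to 0.839 in all 18 pairs and others at −0.663 to 0.183 (36 pairs), so the numbers pair the libraries and a model with the number as a block is given where it changes a call. Libraries within a group differed by 19.8 to 85.0 in chi-square per gene, far above counting noise, so none was a duplicate. Genes named were the 5 members, examples from lists of relatives, IFNγ signalling genes, guanylate-binding proteins, other apolipoproteins and chromosome 22 neighbours, and the genes of highest correlation; FOXRED2, CLU, CIITA, IRF9 and the guanylate-binding proteins called with the block are named after their values were seen. The code was tested on simulated counts. Sequences were read with Python 3.11.15 from GENCODE transcripts.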

Additional observations from a re-analysis of the deposited data

How the results depend on the processing

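All 5 members were called in DI vs D under the other scalings, without the filter, by DESeq2, with only the libraries of these groups, with the replicate block, at either stricter threshold and with any single library left out (5 to 5), and 4 to 5 were with 1 replicate number left out of every group, a setting chosen after seeing the data. APOL2 alone passed the filter without the libraries with IFNγ, so these counts in DI vs D are no support for the other members. In DI vs I, 3 members were called with the replicate block and 0 under every other alternative (0 to 0 with libraries left out). The block was the only alternative that used the pairing of the libraries. In D vs C and in the interaction 0 members were called under each alternative. The block changed no other call of a member. Among the fitted values of called or uncalled members, DI vs I kept its direction throughout, with single libraries left out giving −1.31 to −0.56 for APOL1, −0.87 to −0.47 for APOL2, −1.24 to −0.60 for APOL3, −1.30 to −0.77 for APOL4 and −0.40 to −0.066 for APOL6. The values of APOL6 in D vs C ran from −1.06 to 1.76 with single libraries left out and from −1.59 to 2.22 with 1 replicate number left out. The interaction of APOL2 ran from −0.19 to 0.90 and from −0.24 to 0.72 in these settings, and that of APOL6 from −2.0 to 0.80 and from −2.40 to 1.34. The interaction of APOL6 was 0.0053 with library size alone and 0.0031 without the filter. The cause of these changes was not tested. Calls over all genes in DI vs I numbered 106 in the model of the 4 groups, 119 with library size alone, 84 without the filter, 617 by DESeq2 and 1658 with the block; in D vs C they numbered 194, 288, 119, 814 and 2200, and in DI vs D 273, 267, 281, 442 and 706. Depth limits APOL1, APOL3 and APOL4 without IFNγ, where 3 counts equal up to 0.187 CPM.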
